A study of Mus musculus with 14 samples.

Results

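The secreted and membrane-bound proteases that remodel extracellular matrix, together with their inhibitors, were followed across 5 cell populations sorted from mouse forelimb buds. The group comprises the matrix metalloproteases (MMPs), the ADAMTS enzymes (a disintegrin and metalloproteinase with thrombospondin motifs), the ADAMTS-like proteins and the tissue inhibitors of metalloproteinases (TIMPs). Its members were taken by gene name, with earlier results of these data known. Of the 24454 genes in the count table, 51 belong to it: 23 MMPs, 19 ADAMTS enzymes, 5 ADAMTS-like proteins and 4 TIMPs.

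MMPs and ADAMTS enzymes are zinc-dependent endopeptidases that are made as inactive precursors. MMPs cleave collagens, gelatin, other matrix proteins and cell surface molecules, whereas ADAMTS enzymes are best known for cutting the large proteoglycans versican and aggrecan, for processing fibrillar procollagens, and for acting on fibrillins and other matrix glycoproteins. ADAMTS-like proteins share the ancillary domains of the ADAMTS enzymes but lack the protease domain, and the TIMPs bind and block the active sites of MMPs and, in the case of TIMP3, of several ADAMTS and ADAM enzymes as well. In the limb bud, mesenchymal cells condense and deposit cartilage matrix, and both steps involve turnover of a versican- and hyaluronan-rich early matrix.

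Cells were sorted by FACS from pooled forelimb buds of embryos of both sexes that all carried the Sox9 IRES-EGFP reporter allele in a mixed Swiss Albino background. All gates excluded 7AAD-positive cells and cells positive for CD31, Ter119, CD45, EpCam, Gr1 or CD11b. EGFP fluorescence defines S9+ cells and its absence S9- cells, while Pαhi means high surface PDGFRα. At E10.5, S9-JAG1+ limb mesenchymal progenitors (LMPs), S9-Pαhi LMPs that were negative for JAG1 and SCA-1, and S9+Pαhi osteo-chondrogenic progenitors (OCPs) were each collected in 3 libraries, and S9-SCA-1+ cells in 2 libraries, which carry the replicate numbers 2 and 3. Chondroblasts (CBs), labelled S9+COL2+ and sorted with the Sox9+PDGFRαhi gate that was also used for OCPs, were collected in 3 libraries at E11.5, so that population and stage cannot be told apart in any comparison with CBs.

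Library totals ranged from 20316583 to 29162751 gene counts, of which the 51 members took 0.107% to 0.193%. Marker sums followed the sort: the summed level of 6 myogenic genes was 1500 CPM (counts per 1000000 on TMM-scaled library totals) in both S9-SCA-1+ libraries and at most 10.7 CPM elsewhere. The summed level of 8 chondrogenic genes lay between 1450 and 3420 CPM in OCPs and CBs and between 178 and 278 CPM in the other libraries. This sum includes Sox9, whose reporter defined S9+ cells, and Col2a1, which is part of the label of CBs, and is no independent check. Col2a1 was already high in OCPs, at 695 to 1230 CPM (mean 989 CPM), against 1270 to 1890 CPM (mean 1540 CPM) in CBs. Sox5, Sox6, Matn4 and Col9a1 also had higher means in OCPs and CBs than in the other populations. Acan was high in CBs only. Hapln1 had means of 7.23 CPM in S9-JAG1+ LMPs, 5.99 CPM in S9-Pαhi LMPs, 3.69 CPM in OCPs, 2.64 CPM in CBs and 0.300 CPM in S9-SCA-1+ cells. The 8 ectodermal genes listed summed to 19.9 to 23.3 CPM in CBs and at most 14.9 CPM elsewhere, and 5 genes of neural crest and glia to 21.1 to 29.2 CPM in CBs and at most 21.4 CPM elsewhere, and their part in the results for CBs was not tested. S9-SCA-1+ replicate 3 stood apart by red blood cell RNA, with 3220 CPM summed over 6 genes against 116 CPM in replicate 2 and 2.42 to 73.2 CPM in the other populations. OCP replicates 1 and 2 differed most among all pairs of replicates, as the chi-square divided by its degrees of freedom was 81.1, compared with 8.20 for the closest pair. Nothing in the labels says whether the pools of replicates came from separate litters, so that the p-values measure the spread between these libraries.

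Of the 51 members, 37 passed the filter on low counts and were tested among 15125 genes: 18 ADAMTS enzymes, 4 ADAMTS-like proteins, 12 MMPs and 3 TIMPs. Calls required an adjusted p no higher than 0.1 (edgeR's quasi-likelihood test, Benjamini-Hochberg adjustment over all tested genes) together with a log2 fold change of 1.2 or more in either direction. The comparisons share libraries and are therefore not independent of each other. As these are bulk samples, fewer cells that express a gene and less RNA of it per cell cannot be told apart.

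CBs had the highest mean level for 19 of the 37 tested members, or 51.4% compared with 32.5% of all tested genes. S9-JAG1+ LMPs and S9-SCA-1+ cells each had the lowest mean for 15 members (40.5%, compared with 24.6% and 25.3% of all tested genes, respectively). In a joint test of the 5 populations, 29 of the 37 members were called, whereas 29.2% of all tested genes were. The other 8, namely Adamts3, Mmp2, Mmp14, Mmp15, Mmp16, Mmp23, Mmp24 and Timp2, passed the adjusted p as well, but their largest difference between populations stayed below the fold limit.

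**Figure D1:**
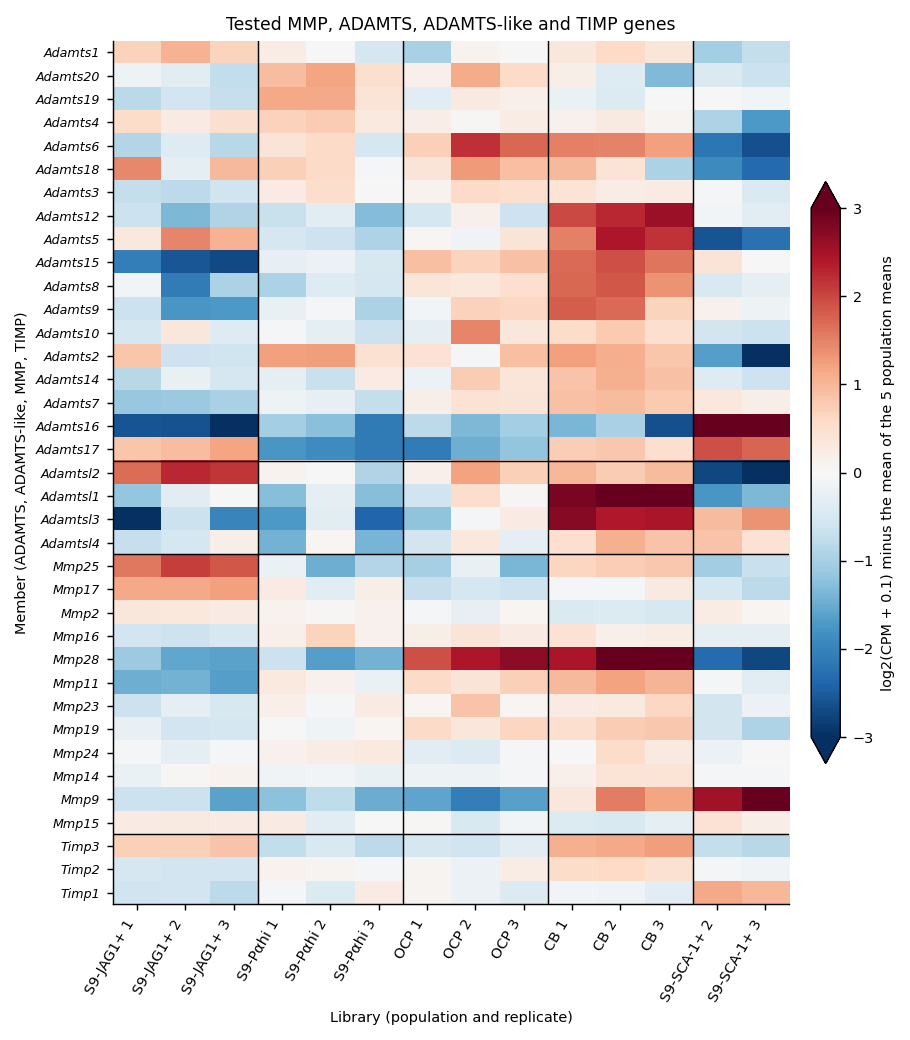
Levels of the 37 tested members (rows, by family) in the 14 libraries (columns, by population and replicate), as log2(CPM + 0.1) minus the mean of the 5 population means of the same gene. Red marks levels above and blue levels below that mean, with colours capped at 3 log2 units: the CB columns are mostly red (19 of 37 members have their highest mean there), and Adamts16 is capped in both S9-SCA-1+ columns.

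Each population was first set against the mean of the other 4. CBs expressed 13 of the 37 tested members at higher levels and 1 at a lower level, while 12.7% of all tested genes were called (11.0% higher, 1.71% lower). The median log2 fold change of the members was 0.87, against 0.05 for all genes. In S9-JAG1+ LMPs, 5 members were called higher and 9 lower (10.6% of all genes called, 2.88% higher and 7.70% lower), with a median of -0.58 for members and -0.01 for all genes. In S9-SCA-1+ cells, likewise 5 were higher and 9 lower (11.3% of all genes, 4.46% higher and 6.80% lower), with medians of -0.39 and -0.01. S9-Pαhi LMPs and OCPs had 4 calls each, 1 higher and 3 lower in the former (3.84% of all genes, 1.53% higher and 2.31% lower) and 2 higher and 2 lower in the latter (5.01%, 3.37% higher and 1.64% lower). In the former, the count was 2 without S9-Pαhi replicate 1 or S9-SCA-1+ replicate 3, and 8 without the S9-SCA-1+ libraries.

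Pairs of populations were compared in the order from LMPs to CBs. Between S9-Pαhi and S9-JAG1+ LMPs, 5 members were higher and 5 lower in S9-Pαhi LMPs (7.00% of all genes called, 4.42% higher and 2.58% lower). From S9-Pαhi LMPs to OCPs 2 members were called higher and 0 lower (4.84% of all genes, 3.48% higher and 1.36% lower). From OCPs to CBs 9 were called higher and 0 lower (7.77% of all genes, 6.60% higher and 1.16% lower). Members with lower levels at an unadjusted p under 0.05 in edgeR's quasi-likelihood test numbered 4 in the former comparison and 2 in the latter, and DESeq2 also called 0 lower in both. The count for OCPs against S9-Pαhi LMPs depended on single libraries: it was 1 without S9-Pαhi replicate 3 or OCP replicate 2, 5 without S9-Pαhi replicate 2 and 4 without OCP replicate 1.

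Without the fold limit, an adjusted p of 0.1 or less was reached by 29 of the 37 members in S9-JAG1+ LMPs (49.9% of all genes), 16 in S9-Pαhi LMPs (15.6%), 17 in OCPs (28.5%), 32 in CBs (65.0%) and 25 in S9-SCA-1+ cells (46.4%). The pairwise comparisons gave 21 between the LMP populations (28.1%), 11 between OCPs and S9-Pαhi LMPs (20.1%) and 21 between CBs and OCPs (34.8%), and the joint test all 37 (74.8%).

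**Figure D2:**
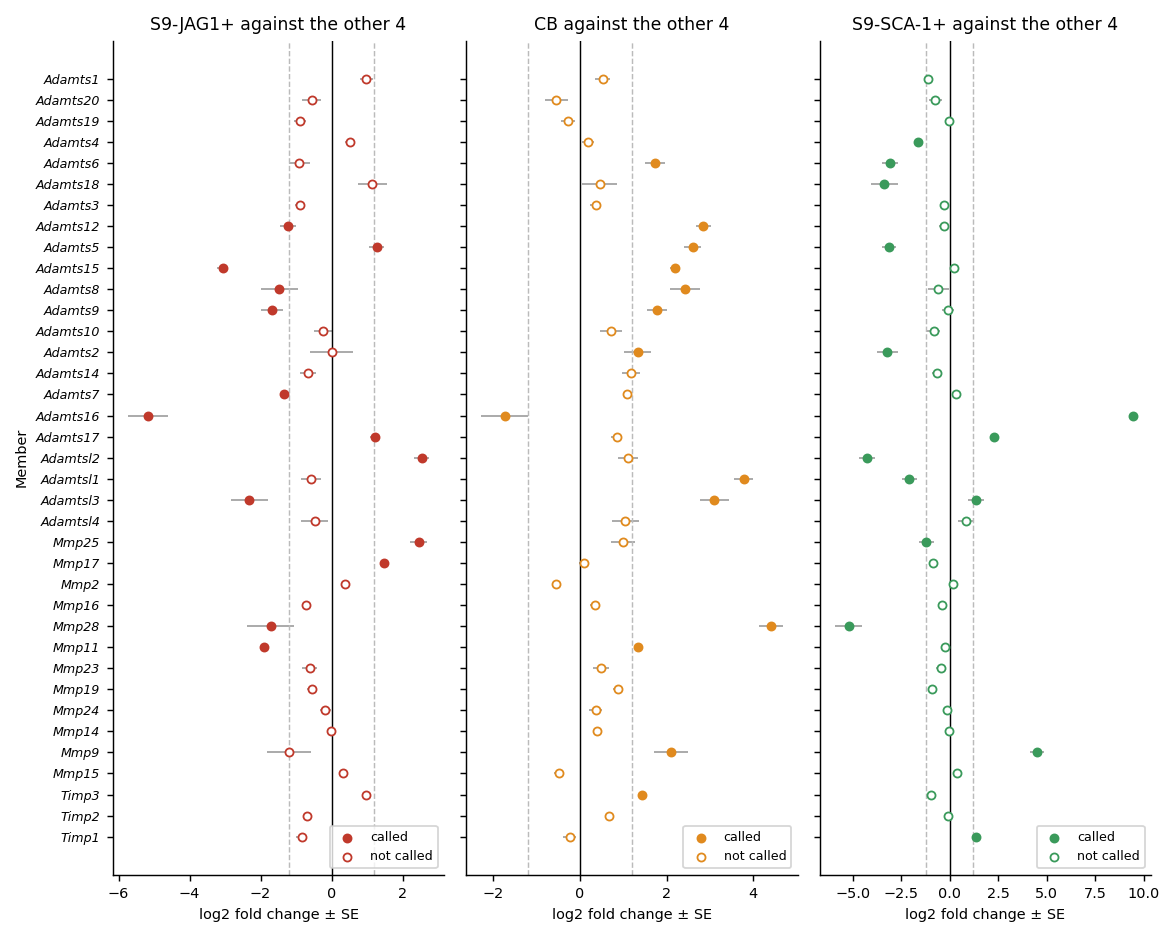
Log2 fold changes (x axes, each with its own scale) with their standard errors for the 37 tested members in S9-JAG1+ LMPs, CBs and S9-SCA-1+ cells, each against the mean of the other 4 populations. Filled points passed both thresholds (adjusted p and the fold limit of 1.2, dashed lines); filled points lie mostly to the right in CBs (13 of 14) and on both sides in S9-JAG1+ LMPs and S9-SCA-1+ cells (5 right and 9 left in each). The fitted values of Adamts16, Mmp9 and Mmp28 depend on the prior count, since a population in each contrast had 3 reads or fewer in all libraries.

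The 7 ADAMTS enzymes that cleave versican and aggrecan (Adamts1, Adamts4, Adamts5, Adamts8, Adamts9, Adamts15 and Adamts20) had their highest per-length sum in CBs, at 50.2 ± 7.30 CPM per kb of exon (SD, n = 3), and their lowest in S9-SCA-1+ cells, at 18.0 ± 0.441 (SD, n = 2). Adamts15 (chr9:30899155-30922452 on mm10) showed the most regular order. Its levels were 4.62, 3.23 and 2.93 CPM in S9-JAG1+ LMPs, 16.6, 17.4 and 14.0 CPM in S9-Pαhi LMPs, 36.6, 31.0 and 36.2 CPM in OCPs, 64.4, 74.8 and 59.7 CPM in CBs, and 25.6 and 19.5 CPM in S9-SCA-1+ cells. No library of any population overlapped with that of its neighbour in this order of means, which ran from CBs over OCPs, S9-SCA-1+ cells and S9-Pαhi LMPs to S9-JAG1+ LMPs. In S9-JAG1+ LMPs Adamts15 was lower by edgeR's quasi-likelihood test (log2 fold change -3.07, SE 0.16, adjusted p = 2.97e-09), in CBs it was higher (2.19, SE 0.11, adjusted p = 2.61e-09), and between S9-JAG1+ and S9-Pαhi LMPs it was higher in the latter (2.16, SE 0.17, adjusted p = 9.13e-07).

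Adamts8, which lies with Adamts15 in a stretch of 64.7 kb on chromosome 9, had the same order of population means at a far lower count. Its counts were 39, 42 and 25 in CBs, 11, 9 and 14 in OCPs, and at most 7 in any other library. In CPM these are 1.31, 1.44 and 0.981 for CBs and 0.446, 0.428 and 0.506 for OCPs. The 3 CB libraries were above all others (log2 fold change 2.43, SE 0.35, adjusted p = 4.27e-05, edgeR's quasi-likelihood test). They were also above OCPs (1.42, SE 0.45, adjusted p = 0.0315), a call that was lost without CB replicate 2. Its lower level in S9-JAG1+ LMPs (-1.48, adjusted p = 0.0346) rests on replicates 2 and 3, because the adjusted p was 0.122 without the former and 0.117 without the latter. Of the exon bases of Adamts8, 10.6% overlap an antisense gene, Gm29724, which has no row in the count table.

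Adamts5, a main aggrecanase of cartilage, was measured at 19.6, 36.8 and 31.0 CPM in CBs, 8.52, 19.0 and 14.0 CPM in S9-JAG1+ LMPs, 4.76, 4.36 and 3.54 CPM in S9-Pαhi LMPs, 7.10, 6.28 and 8.86 CPM in OCPs, and 1.05 and 1.35 CPM in S9-SCA-1+ cells. Thus CBs had most, S9-JAG1+ LMPs followed with an overlap with OCPs, and S9-Pαhi LMPs and S9-SCA-1+ cells had least. All CB libraries were above all others (log2 fold change 2.60, SE 0.20, adjusted p = 1.08e-07, edgeR's quasi-likelihood test) and both S9-SCA-1+ libraries below all others (-3.14, SE 0.35, adjusted p = 8.40e-06). S9-Pαhi LMPs had less than S9-JAG1+ LMPs (-1.71, SE 0.29, adjusted p = 0.000610). The call for S9-JAG1+ LMPs against the other 4 (1.27) was lost without the S9-SCA-1+ libraries (0.52, adjusted p = 0.0695) or without S9-JAG1+ replicate 2 (0.99).

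Adamts9, which acts on versican in many embryonic tissues, reached 90.6, 83.1 and 40.8 CPM in CBs and had its lowest values in S9-JAG1+ LMPs, at 16.3, 7.58 and 7.69 CPM. In between lay S9-Pαhi LMPs at 22.0, 24.9 and 13.3 CPM, OCPs at 24.4, 41.4 and 39.5 CPM, and S9-SCA-1+ cells at 27.9 and 23.1 CPM. It was called higher in CBs (log2 fold change 1.78, adjusted p = 2.80e-05) and lower in S9-JAG1+ LMPs (-1.68, adjusted p = 0.000568) by edgeR's quasi-likelihood test. CB replicate 3 was the lowest of the 3 CB libraries and below OCP replicate 2, so that these groups overlap. An antisense gene without a row in the count table covers 9.18% of its exon bases.

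Adamts1, the most abundant gene of the subfamily per length (16.3 CPM per kb averaged over the populations), was highest in S9-JAG1+ LMPs at 116, 148 and 115 CPM, above all other libraries, which ranged from 35.7 to 110 CPM. With a log2 fold change of 0.98 (adjusted p = 0.000539, edgeR's quasi-likelihood test) it did not reach the fold limit. Its neighbour Adamts5 lies within 107 kb on chromosome 16. Adamts4 was called only in S9-SCA-1+ cells among the 5 comparisons with the other 4 populations, at 3.81 and 2.17 CPM against 7.51 to 12.5 CPM elsewhere (log2 fold change -1.64, SE 0.20, adjusted p = 1.52e-05). Adamts20, which is needed for pigment cell development and palate closure, was higher in S9-Pαhi than in S9-JAG1+ LMPs (18.6, 22.1 and 13.5 against 8.65, 7.67 and 5.75 CPM, log2 fold change 1.30, adjusted p = 0.0100, edgeR's quasi-likelihood test), which was not called without S9-JAG1+ replicate 3 or S9-Pαhi replicate 2.

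The procollagen N-proteinases Adamts2, Adamts3 and Adamts14 remove the amino-terminal propeptides of fibrillar procollagens. Adamts2 was measured at 3.73, 3.42 and 2.83 CPM in CBs, 3.78, 3.80 and 2.14 CPM in S9-Pαhi LMPs, 2.11, 1.47 and 2.97 CPM in OCPs, 2.83, 0.964 and 0.991 CPM in S9-JAG1+ LMPs, and 0.420 and 0.107 CPM in S9-SCA-1+ cells. Only the S9-SCA-1+ libraries stood clear of all others (log2 fold change -3.21, SE 0.56, adjusted p = 0.000467, edgeR's quasi-likelihood test). The calls of Adamts2 as higher in CBs (1.33) and in S9-Pαhi LMPs (1.29) were both lost without the S9-SCA-1+ libraries, at 0.56 and 0.53, and without replicate 3 of the latter alone, at 1.17 and 1.13. The call in S9-Pαhi LMPs was also lost without their replicate 1 (adjusted p = 0.111) or replicate 2 (log2 fold change 1.16). Adamts3 ranged from 7.33 to 18.9 CPM over all libraries and was not called in any comparison, and Adamts14 was highest in CBs at 5.51, 6.40 and 5.61 CPM, a 2.27-fold difference just under the fold limit (adjusted p = 0.000161, edgeR's quasi-likelihood test).

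Adamts12 and Adamts7 share a mucin-like domain and cleave cartilage oligomeric matrix protein (COMP). Adamts12 (chr15:11064773-11349232) stood out in CBs. There it reached 21.2, 26.1 and 32.0 CPM, compared with 3.38, 2.05 and 2.81 CPM in S9-JAG1+ LMPs, 3.33, 4.21 and 2.09 CPM in S9-Pαhi LMPs, 3.69, 5.89 and 3.44 CPM in OCPs, and 5.04 and 4.20 CPM in S9-SCA-1+ cells. Every CB library was above every other library, and the other 4 populations overlapped with their neighbours in the order of means. The mean in CBs was 5.73 times that of the next population. By edgeR's quasi-likelihood test, Adamts12 was higher in CBs than in the mean of the others (log2 fold change 2.85, SE 0.18, adjusted p = 1.80e-08) and than in OCPs (2.62, SE 0.26, adjusted p = 1.09e-05). A lower level in S9-JAG1+ LMPs (-1.22, adjusted p = 0.000781) sat at the fold limit and was lost at -1.15 without OCP replicate 2, -1.04 without S9-JAG1+ replicate 2, -1.16 without S9-Pαhi replicate 2, -1.17 without CB replicate 3 and -1.19 without S9-SCA-1+ replicate 2.

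The 250 bases upstream of the transcription starts of Adamts12 and Mmp28 are shown because both genes had their highest mean in CBs while they differed in OCPs, where Mmp28 was already high and Adamts12 was not. The sequences are from RefSeq (GRCm38.p6, the assembly of mm10) and are written 5′ to 3′ on the strand of the gene, chr15:11064523-11064772 on the plus strand for Adamts12 and chr11:83463041-83463290 on the minus strand for Mmp28. Searched on both strands were the E boxes CAGCTG and CAGGTG, the SOX-type motifs ACAAAG and ACAATG, and the TATA box TATAAA. Capitals mark the only match.
Adamts12: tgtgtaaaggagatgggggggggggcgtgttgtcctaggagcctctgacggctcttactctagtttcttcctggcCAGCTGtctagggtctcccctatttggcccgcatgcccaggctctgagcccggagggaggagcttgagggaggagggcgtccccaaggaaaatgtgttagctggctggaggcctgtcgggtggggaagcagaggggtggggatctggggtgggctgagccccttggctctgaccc
Mmp28: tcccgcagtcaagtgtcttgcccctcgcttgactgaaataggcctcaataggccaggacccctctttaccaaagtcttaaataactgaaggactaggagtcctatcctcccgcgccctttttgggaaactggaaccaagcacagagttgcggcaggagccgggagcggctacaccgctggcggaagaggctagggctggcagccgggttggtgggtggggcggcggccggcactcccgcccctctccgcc
The upstream window of Adamts12 holds CAGCTG 175 bases before the start, and that of Mmp28 holds none of the 5 motifs. CAGCTG was found in 12.8% of 27025 promoters of the same length and in 9 of the 36 members with a promoter sequence, CAGGTG in 17.1% and 7, ACAAAG in 16.5% and 7, ACAATG in 11.0% and 4, and TATAAA in 13.0% and 10.

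Adamts7 had the same top population but a flatter order, with 22.8, 23.4 and 25.9 CPM in S9-JAG1+ LMPs, 45.7, 42.4 and 31.0 CPM in S9-Pαhi LMPs, 57.1, 68.5 and 65.8 CPM in OCPs, 93.2, 97.5 and 86.8 CPM in CBs, and 63.0 and 57.6 CPM in S9-SCA-1+ cells. The S9-JAG1+ libraries were below and the CB libraries above all others. Adamts7 was called lower in S9-JAG1+ LMPs (log2 fold change -1.35, SE 0.11, adjusted p = 3.68e-07, edgeR's quasi-likelihood test), while its difference in CBs stayed under the fold limit (1.08, SE 0.09, adjusted p = 3.82e-07). Per length of exon, Adamts7 was the more abundant of the pair, with 17.3 CPM per kb in CBs against 4.24 CPM per kb for Adamts12.

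Adamts10 and Adamts6 are both linked to fibrillin microfibrils. Adamts6 was measured at 19.4, 54.5 and 38.8 CPM in OCPs, 33.7, 33.3 and 27.8 CPM in CBs, 15.3, 17.7 and 8.07 CPM in S9-Pαhi LMPs, 6.38, 8.92 and 6.58 CPM in S9-JAG1+ LMPs, and 2.55 and 1.82 CPM in S9-SCA-1+ cells. OCPs and CBs overlapped and were above the other populations. By edgeR's quasi-likelihood test Adamts6 was higher in OCPs (log2 fold change 2.04, SE 0.24, adjusted p = 2.79e-05), also without OCP replicate 2 (1.68) and without replicate 1 (2.35), and lower in S9-SCA-1+ cells (-3.08, SE 0.40, adjusted p = 3.51e-05). It was 1 of the 2 members called between S9-Pαhi LMPs and OCPs (1.45, SE 0.32, adjusted p = 0.00881), though not without S9-Pαhi replicate 3 or OCP replicate 2. The call in CBs (1.73) was lost without the S9-SCA-1+ libraries (1.01).

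Adamts10 was the most abundant ADAMTS gene per length, with 30.2 CPM per kb averaged over the populations. In OCPs it was measured at 90.4, 307 and 141 CPM, so that replicate 2 was far above the other 2, and it made up 51.2% of the summed ADAMTS level per length in that library. In the remaining libraries it ranged from 70.6 to 193 CPM. It was not called in any comparison of populations other than the joint test (adjusted p = 0.0163, edgeR's quasi-likelihood test), and there it was not called without OCP replicate 2.

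Adamts16 (chr13:70727798-70841845), an enzyme with known roles in kidney, gonad and blood pressure and for which fibronectin is a reported substrate, was measured at 111 and 103 CPM in the 2 S9-SCA-1+ libraries and at 0.406 CPM or less in the other 12. As counts, these are 3164 and 2882 reads against 0 to 10 reads. The lower S9-SCA-1+ library was 253 times the highest library of any other population. The difference was called by edgeR's quasi-likelihood test (adjusted p = 5.88e-14, higher in 2 of 2 libraries, and adjusted p = 1.61e-11 without replicate 3), and its fitted fold is not given because S9-JAG1+ LMPs had 1, 1 and 0 reads, under the floor of 3 counts. Adamts16 alone made up 23.2% ± 0.109 of the summed ADAMTS level per length in S9-SCA-1+ cells (SD, n = 2). With 21.4 CPM per kb there it was above Adamts10, at 18.0 CPM per kb. It was called lower in S9-JAG1+ LMPs, S9-Pαhi LMPs and CBs against reference means that include the S9-SCA-1+ cells, the second of these (adjusted p = 0.0866) not without either S9-SCA-1+ library or any of 8 others. It was also called between the LMP populations at 1, 1 and 0 against 8, 7 and 2 reads (adjusted p = 0.0232), but not with only those libraries in the fit. The myogenic markers moved with it, and their part in this result was not tested.

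**Figure D3:**
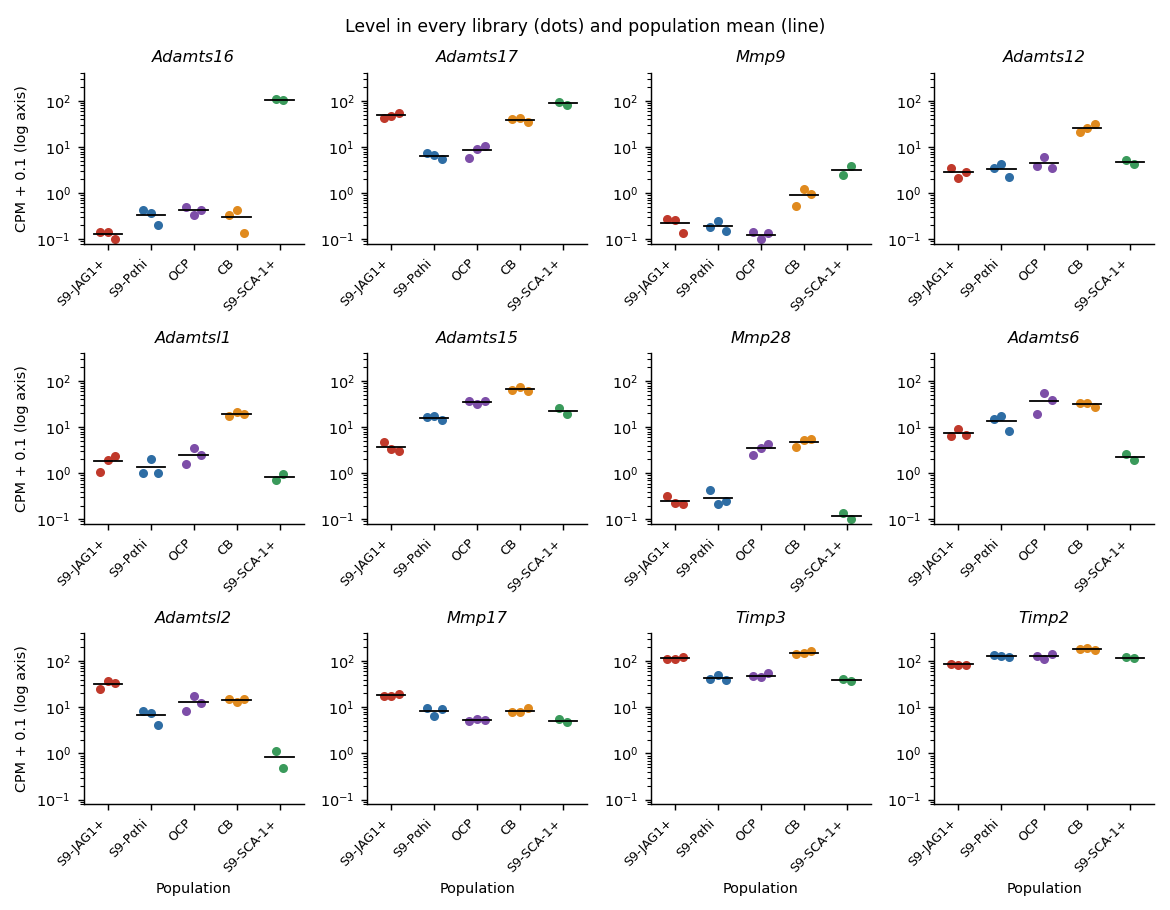
Levels of 12 members in every library, as CPM + 0.1 on a log axis shared by all panels, with 1 dot per library and a line at the mean of each population. Adamts16 is over 100 CPM in both S9-SCA-1+ libraries and near the lower end of the axis elsewhere, Adamts12 and Adamtsl1 stand out in CBs, Mmp28 separates OCPs and CBs from the rest, and Timp3 and Adamts17 are higher in S9-JAG1+ LMPs and CBs than in S9-Pαhi LMPs and OCPs.

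Adamts17, an enzyme linked to fibrillin and to short stature, was also highest in S9-SCA-1+ cells, but was present in all populations. Levels of 93.7 and 82.8 CPM were found in S9-SCA-1+ cells, 43.5, 46.2 and 55.3 CPM in S9-JAG1+ LMPs, 40.9, 42.7 and 35.0 CPM in CBs, 5.64, 8.84 and 10.7 CPM in OCPs, and 7.24, 6.50 and 5.53 CPM in S9-Pαhi LMPs. Hence it was high in 3 populations and low in the 2 E10.5 Pαhi populations, which overlapped with each other. It was higher in S9-SCA-1+ cells (log2 fold change 2.30, SE 0.14, adjusted p = 1.30e-08, edgeR's quasi-likelihood test), lower in S9-Pαhi LMPs (-2.42, SE 0.17, adjusted p = 5.71e-07) and in OCPs (-1.94, SE 0.16, adjusted p = 1.57e-06), and higher in CBs than in OCPs (2.23, SE 0.19, adjusted p = 2.76e-06). Its call in S9-JAG1+ LMPs (1.21) sat at the fold limit and was lost with library totals as the scale (1.16), and at 1.11 to 1.19 without S9-JAG1+ replicate 3, S9-Pαhi replicate 3, OCP replicate 1 or S9-SCA-1+ replicate 3.

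Adamts18 is the closest relative of Adamts16 in the family and Adamts19 that of Adamts17. Adamts18 was measured at 0.175 and 0.107 CPM in S9-SCA-1+ cells, below all other libraries, which ranged from 0.432 to 2.70 CPM (log2 fold change -3.38, SE 0.70, adjusted p = 0.00159, edgeR's quasi-likelihood test). Adamts19 was highest in S9-Pαhi LMPs at 64.3, 64.1 and 38.0 CPM, above all other libraries, and lowest in S9-JAG1+ LMPs at 16.5, 19.3 and 17.9 CPM. It was called between these 2 populations (1.63, SE 0.20, adjusted p = 3.79e-05), and was under the fold limit for S9-Pαhi LMPs against the mean of the others (1.16). Adamts13, the von Willebrand factor protease of plasma, had at most 3 counts in every library.

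The ADAMTS-like proteins bind fibrillin or other matrix components, and each of the 3 abundant members had its own pattern. Adamtsl1 was measured at 17.3, 20.8 and 19.7 CPM in CBs and at 0.629 to 3.42 CPM in the other 11 libraries, so that the lowest CB library was 5.05 times the highest of the others. It was higher in CBs than in the mean of the others (log2 fold change 3.78, SE 0.22, adjusted p = 1.07e-08, edgeR's quasi-likelihood test) and than in OCPs (2.99, SE 0.32, adjusted p = 1.99e-05), and lower in S9-SCA-1+ cells at 0.629 and 0.855 CPM (-2.09, SE 0.39, adjusted p = 0.000725). Adamtsl3 was measured at 12.0, 9.51 and 9.78 CPM in CBs, 3.39 and 4.52 CPM in S9-SCA-1+ cells, 0.689, 1.66 and 2.06 CPM in OCPs, 0.447, 1.35 and 0.249 CPM in S9-Pαhi LMPs, and 0.128, 1.05 and 0.357 CPM in S9-JAG1+ LMPs. It thus followed Adamtsl1 in CBs (3.10, SE 0.34, adjusted p = 3.36e-06), but not in S9-SCA-1+ cells, where it was called higher (1.36, adjusted p = 0.0195) with both libraries and not without replicate 3 (1.14, adjusted p = 0.198). It was called lower in S9-JAG1+ LMPs (-2.32, SE 0.52, adjusted p = 0.00244) and in S9-Pαhi LMPs (-1.73, adjusted p = 0.0341), the latter not without S9-Pαhi replicate 1 (adjusted p = 0.168) or 3 (adjusted p = 0.158).

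Adamtsl2, which is linked to TGFβ availability and fibrillin microfibrils, was instead highest in S9-JAG1+ LMPs at 24.4, 36.7 and 33.9 CPM, followed by 15.1, 12.9 and 14.8 CPM in CBs, 8.39, 17.5 and 12.5 CPM in OCPs, 8.13, 7.56 and 4.03 CPM in S9-Pαhi LMPs, and 1.05 and 0.392 CPM in S9-SCA-1+ cells. The S9-JAG1+ libraries were above and the S9-SCA-1+ libraries below all others (log2 fold changes 2.54, SE 0.21, adjusted p = 5.07e-07, and -4.26, SE 0.42, adjusted p = 2.07e-06, edgeR's quasi-likelihood test). Between the 2 LMP populations it was lower in S9-Pαhi LMPs (-2.26, SE 0.30, adjusted p = 7.82e-05). Adamtsl4 ranged from 0.244 to 1.85 CPM and was called in the joint test only (adjusted p = 0.0170), and Adamtsl5, with at most 7 counts in any library, was not tested.

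The gelatinases Mmp2 and Mmp9 degrade denatured collagen and basement membrane collagen. Mmp2 was the most abundant member, with 115 CPM per kb averaged over the populations. Its levels were 438, 433 and 409 CPM in S9-JAG1+ LMPs, above all other libraries, and 254, 258 and 247 CPM in CBs, below all others. These differences (log2 fold changes 0.38, adjusted p = 0.000283, and -0.56, adjusted p = 8.49e-06, edgeR's quasi-likelihood test) were larger than the spread between replicates but under the fold limit.

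Mmp9 was 2.34 and 3.74 CPM in S9-SCA-1+ cells and 0.437, 1.13 and 0.864 CPM in CBs, or 67 and 105 reads and 13, 33 and 22 reads. In the other 9 libraries it had 0 to 4 reads (at most 0.171 CPM), and OCPs were under the floor of 3 counts in all libraries. Both S9-SCA-1+ libraries were above all CB libraries, which were above the rest. Mmp9 was called higher in S9-SCA-1+ cells (adjusted p = 2.60e-07, and 3.98e-05 without replicate 3) and in CBs (adjusted p = 0.000387) by edgeR's quasi-likelihood test. Mmp9 was also called lower in OCPs, a call that rests on 1, 0 and 1 reads there. Leukocytes are a known source of Mmp9 in other tissues. The summed level of 7 leukocyte genes was 4.79 to 5.77 CPM in S9-SCA-1+ cells and 3.42 to 5.68 CPM in CBs, within the range of 2.59 to 8.92 CPM of the other libraries, but most of that sum was Cd68 (means of 3.93 to 6.05 CPM). Of the other 6, Ptprc (mean of 0.318 CPM against at most 0.152 CPM in any other population), Csf1r (0.141 against at most 0.0547 CPM) and Cx3cr1 (0.0890 against at most 0.0359 CPM) had their highest means in S9-SCA-1+ cells, at a few reads per library, while Fcer1g, Tyrobp and Itgam were at or under the floor there. The red blood cell genes were higher in S9-SCA-1+ cells (116 and 3220 CPM). Of 7 endothelial genes only Kdr was higher there, at 6.08 and 10.9 CPM against at most 1.99 CPM in any other library, while Pecam1 (0.354 CPM) and Cdh5 (0.564 CPM) had means below those of S9-Pαhi LMPs (0.783 and 1.23 CPM). The part of these cells in the Mmp9 level was not tested.

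Mmp14, the membrane-type protease that activates Mmp2 at the cell surface, was the second in level per length, with 61.8 CPM per kb. Its levels were 177, 210 and 212 CPM in CBs and 136 to 171 CPM in the other libraries (log2 fold change 0.40, SE 0.07, adjusted p = 0.000267, edgeR's quasi-likelihood test), so that its difference in CBs was opposite in sign to that of Mmp2 and also within the fold limit. Mmp17 and Mmp25, the 2 MMPs anchored by glycosylphosphatidylinositol, were both highest in S9-JAG1+ LMPs. Mmp17 was measured at 17.7, 17.8 and 19.0 CPM there and at 4.59 to 9.58 CPM in the other 11 libraries (1.48, SE 0.11, adjusted p = 1.66e-07). Mmp25 was measured at 2.91, 4.15 and 3.53 CPM in S9-JAG1+ LMPs, 1.48, 1.57 and 1.65 CPM in CBs, and 0.263 to 0.772 CPM elsewhere. It was higher in S9-JAG1+ LMPs (2.45, SE 0.25, adjusted p = 2.84e-06), lower in S9-Pαhi than in S9-JAG1+ LMPs (-2.83, SE 0.37, adjusted p = 7.20e-05) and higher in CBs than in OCPs (1.72, SE 0.38, adjusted p = 0.00449), while a call as lower in S9-SCA-1+ cells (-1.21) sat at the fold limit and was lost with DESeq2 size factors and, at -1.19 to -0.99, without S9-JAG1+ replicate 2, S9-Pαhi replicate 1, OCP replicate 2, CB replicate 3 or S9-SCA-1+ replicate 2.

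Mmp11 (stromelysin 3), which is processed by furin inside the cell, had its highest and lowest means in the same populations as Adamts15. It amounted to 14.6, 15.1 and 12.8 CPM in S9-JAG1+ LMPs, 49.8, 44.0 and 35.4 CPM in S9-Pαhi LMPs, 60.5, 53.3 and 66.1 CPM in OCPs, 80.0, 93.5 and 82.9 CPM in CBs, and 38.9 and 32.3 CPM in S9-SCA-1+ cells. The S9-JAG1+ libraries were below all others (log2 fold change -1.90, SE 0.12, adjusted p = 2.45e-08, edgeR's quasi-likelihood test) and the CB libraries above all others (1.34, SE 0.09, adjusted p = 6.00e-08). It was also higher in S9-Pαhi than in S9-JAG1+ LMPs (1.60, SE 0.13, adjusted p = 1.35e-06).

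Mmp28 (epilysin, chr11:83440768-83463040), whose upstream sequence is shown with that of Adamts12, separated the S9+ from the S9- populations. It reached 2.43, 3.47 and 4.19 CPM in OCPs and 3.56, 5.20 and 5.38 CPM in CBs, compared with 0.214, 0.126 and 0.119 CPM in S9-JAG1+ LMPs, 0.325, 0.113 and 0.149 CPM in S9-Pαhi LMPs, and 0.0350 and 0.00 CPM in S9-SCA-1+ cells. The lowest of the 6 S9+ libraries was 7.48 times the highest of the 8 S9- libraries, while OCPs and CBs overlapped. From S9-Pαhi LMPs to OCPs the log2 fold change was 4.07 (SE 0.40, adjusted p = 1.65e-05, edgeR's quasi-likelihood test), the larger of the 2 differences called there. The S9-SCA-1+ libraries had 1 and 0 reads, and Mmp28 was called lower there (adjusted p = 5.10e-05). A call as lower in S9-JAG1+ LMPs (adjusted p = 0.0532) was lost without S9-JAG1+ replicate 2 or 3 or S9-SCA-1+ replicate 2. An antisense gene overlaps 12.0% of the exon bases of Mmp28 and reached 2.40 CPM at most, and the counting is not stated to use strand.

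Of the 23 MMPs, 10 had at most 3 counts in every library. They are the 10 genes of a cluster of 427 kb on chromosome 9 (7272514 to 7699585): Mmp13, Mmp12, Mmp1b, Mmp3, Mmp1a, Mmp10, Mmp8, Mmp27, Mmp20 and Mmp7, which include the interstitial collagenases, the stromelysins 1 and 2, and matrilysin. The highest count of any of them was 2 reads. At these depths the floor of 3 counts corresponds to 0.101 to 0.149 CPM, and it covers counting error only. Mmp13, the collagenase of hypertrophic cartilage, was at 2 counts or fewer. Mmp21 was over 3 counts in at least 1 library but was not tested. Of the other tested MMPs, Mmp15, Mmp16, Mmp23 and Mmp24 were not called in any comparison, and Mmp19 was called in the joint test only (adjusted p = 8.27e-06).

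The 3 tested TIMPs had 3 different orders. Timp3, which binds to matrix and inhibits the widest range of metalloproteases, was measured at 142, 149 and 163 CPM in CBs and 112, 112 and 123 CPM in S9-JAG1+ LMPs, compared with 40.7, 49.4 and 39.2 CPM in S9-Pαhi LMPs, 47.3, 44.5 and 54.4 CPM in OCPs, and 41.5 and 38.0 CPM in S9-SCA-1+ cells. Neither of the 2 high populations overlapped with any other. Timp3 was higher in CBs than in the mean of the others (log2 fold change 1.44, SE 0.08, adjusted p = 4.59e-09, edgeR's quasi-likelihood test) and than in OCPs (1.64, SE 0.11, adjusted p = 3.36e-07), and lower in S9-Pαhi than in S9-JAG1+ LMPs (-1.43, SE 0.11, adjusted p = 4.43e-07). Syn3 is antisense to 21.3% of its exon bases but was at 13.8 CPM or less in every library.

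Timp2, which blocks Mmp2 and takes part in its activation by Mmp14, was measured at 87.8, 84.8 and 84.0 CPM in S9-JAG1+ LMPs, 134, 133 and 122 CPM in S9-Pαhi LMPs, 132, 111 and 147 CPM in OCPs, 184, 190 and 171 CPM in CBs, and 123 and 117 CPM in S9-SCA-1+ cells. CBs were above and S9-JAG1+ LMPs below all others, within the fold limit (log2 fold changes 0.66, adjusted p = 2.68e-06, and -0.70, adjusted p = 7.05e-06, edgeR's quasi-likelihood test). Timp1, the least abundant of the 3 per length (5.49 CPM per kb averaged over the populations), was highest in S9-SCA-1+ cells at 9.93 and 8.94 CPM, against 2.54 to 5.28 CPM in the other libraries (1.35, SE 0.15, adjusted p = 1.03e-05, and 1.42 without replicate 3). Timp4 had 3, 9 and 8 counts in CBs and at most 2 in any other library, and was not tested.

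The families differed in how their summed level per length was spread over the populations. The MMP sum was 235 ± 4.39 CPM per kb in S9-JAG1+ LMPs, 222 ± 6.14 in S9-Pαhi LMPs, 218 ± 17.2 in OCPs and 226 ± 10.4 in CBs (SD, n = 3 each), and 226 ± 14.5 in S9-SCA-1+ cells (SD, n = 2). Mmp2 and Mmp14 together made up 70.7% to 85.5% of it. Within this sum the composition differed, as the share of Mmp2 was 59.6% ± 2.47 in S9-JAG1+ LMPs and 36.9% ± 1.84 in CBs (SD, n = 3 each).

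The TIMP sum was 87.1 ± 1.56 CPM per kb in CBs (SD, n = 3) and had means of 49.9 to 52.2 CPM per kb in the other 4 populations. The ratio of the TIMP sum to the MMP sum was accordingly 0.403, 0.380 and 0.377 in the CB libraries and 0.211 to 0.240 in the other 11. Timp3 made up 48.0% ± 1.91 of the TIMP sum in S9-JAG1+ LMPs and 37.2% ± 2.84 in CBs (SD, n = 3 each), and had mean shares of 16.3% to 20.5% elsewhere. Timp2 was above Timp3 per length in CBs (50.2 ± 2.64 against 32.4 ± 2.30 CPM per kb, SD, n = 3), S9-Pαhi LMPs, OCPs and S9-SCA-1+ cells, whereas the pair had 23.6 ± 0.548 and 24.7 ± 1.32 CPM per kb in S9-JAG1+ LMPs (SD, n = 3). The ADAMTS sum was 136 ± 12.8 CPM per kb in CBs and 106 ± 39.5 in OCPs (SD, n = 3 each), where it was 68.6, 147 and 101 in the 3 libraries, and had means of 75.0 to 92.5 in the remaining populations.

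**Figure D4:**
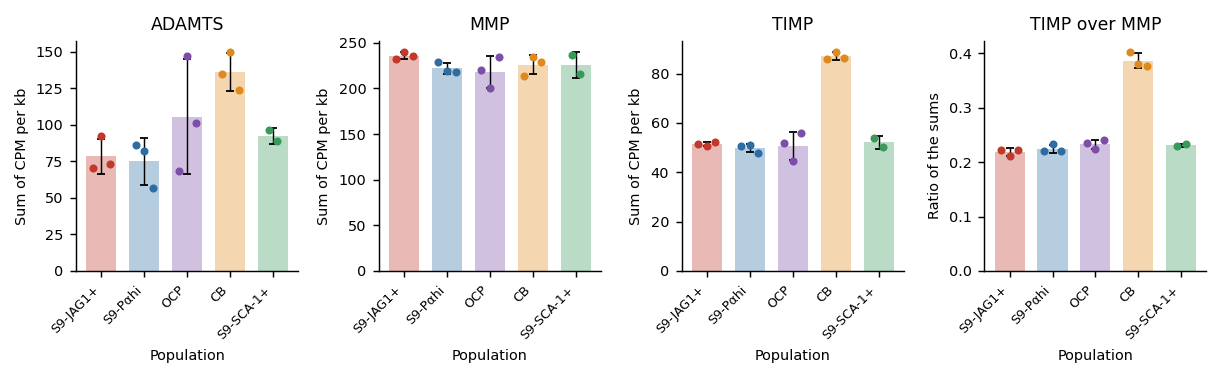
Sums of CPM per kb of exon length over the members of the ADAMTS, MMP and TIMP families, and the ratio of the TIMP to the MMP sum, by population. Bars are means, error bars the SD, and dots the libraries: the MMP bars lie between 218 and 235, and the 3 CB libraries are above all others in the TIMP sum and in the ratio (0.377 to 0.403 against 0.211 to 0.240).

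Genes of the same system that are not members were listed by function. Among 19 tested substrates, CBs had 9 called higher, namely Acan, Vcan, Ncan, Col1a1, Col1a2, Col2a1, Comp, Dcn and Thbs1, against 11.0% of all tested genes, while S9-SCA-1+ cells had 10 called lower, against 6.80% of all tested genes. Col2a1 is part of the label of the CBs and is no finding for them. Acan (aggrecan) had a mean of 9.55 CPM in CBs (3.43, 10.3 and 14.9 CPM by library) and at most 0.454 CPM in the other populations (log2 fold change 5.39, adjusted p = 6.84e-08, edgeR's quasi-likelihood test), and Comp 0.824 CPM against at most 0.131 CPM (2.88, adjusted p = 0.000222). Vcan (versican) had means of 1670 CPM in CBs, 1360 CPM in OCPs, 680 CPM in S9-JAG1+ LMPs, 390 CPM in S9-Pαhi LMPs and 386 CPM in S9-SCA-1+ cells, and was called between S9-Pαhi LMPs and OCPs (1.81, adjusted p = 0.000228). The OCP libraries were spread widely, at 786, 1970 and 1330 CPM, with replicate 2 the highest, against 333, 482 and 354 CPM in S9-Pαhi LMPs.

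Of 10 tested activators of these enzymes, 1 was called higher and 1 lower in CBs (11.0% and 1.71% of all tested genes). In S9-JAG1+ LMPs 1 was higher and 2 lower (2.88% and 7.70%), and in OCPs 0 were higher and 1 lower (3.37% and 1.64%). Pcsk6, a proprotein convertase, was higher in CBs (log2 fold change 1.73, adjusted p = 7.53e-06, edgeR's quasi-likelihood test) and lower in OCPs (-1.53, adjusted p = 0.000766). Pcsk5, a related convertase, was lower in S9-JAG1+ LMPs (-1.31, adjusted p = 2.57e-06, edgeR's quasi-likelihood test), as was Plat, the tissue plasminogen activator (-1.87, adjusted p = 3.69e-05), whereas the urokinase receptor gene Plaur was higher in S9-JAG1+ LMPs (2.02, adjusted p = 4.10e-05) and lower in CBs (-2.73, adjusted p = 6.04e-05). Furin ranged from 77.2 to 112 CPM in the population means without a call. Among 10 tested brakes and receptors, 2 were called higher in CBs, against 11.0% of all tested genes. These were Spock1 and Spock3, which encode testican proteoglycans (log2 fold changes 1.95, adjusted p = 1.75e-05, and 1.66, adjusted p = 5.50e-07, edgeR's quasi-likelihood test). Their relative Spock2 was not called higher in CBs and had its highest mean in S9-JAG1+ LMPs (9.81 CPM against 8.39 CPM in CBs). Reck, the membrane-anchored MMP inhibitor, had means of 46.6 CPM in S9-SCA-1+ cells, 56.5 CPM in S9-JAG1+ LMPs, 79.3 CPM in S9-Pαhi LMPs, 96.2 CPM in OCPs and 108 CPM in CBs. It was called in the joint test (largest log2 difference 1.21, adjusted p = 2.33e-07, edgeR's quasi-likelihood test) and in no comparison of single populations.

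A further list of genes outside the 51 members, not all of which encode proteases, had 4 of its 17 tested genes higher in CBs, where 11.0% of all tested genes were. These were Adam22, Adam33, the ADAMTS-like gene Thsd4 and Meltf. Adam12, a disintegrin protease of muscle precursors, was highest in S9-SCA-1+ cells with a mean of 29.1 CPM (log2 fold change 2.57, adjusted p = 2.84e-08, edgeR's quasi-likelihood test) and was higher in OCPs than in S9-Pαhi LMPs (1.52, adjusted p = 0.000461). The procollagen C-proteinase Bmp1 had population means of 167 to 320 CPM without a call, and its relative Tll1 was lower in S9-JAG1+ LMPs (-1.49, adjusted p = 2.43e-06).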

How the data were processed

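RNA-seq counts of 14 libraries were used. Per the paper's methods, the authors aligned single-end reads of poly(A)+ RNA to mm10 with STAR, keeping 1 position for each multimapping read, and counted reads starting in RefSeq mRNA exons with qCount of QuasR 1.18.0; whether strand was used is not stated there. The deposited values are raw counts per Entrez identifier. The authors' exon lengths (a deposited column) served for levels per kb, on the scale CPM per kb of exon.

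Of 24454 identifiers, 24374 were matched to RefSeq symbols, and the other 80 held 0.358% of counts. With edgeR 4.0.16 (R 4.3.3), low genes were removed with filterByExpr by population, which left 15125, and libraries were scaled by TMM (factors 0.957 to 1.06). The model had 1 mean per population over all 14 libraries (biological coefficient of variation 13.4%). Quasi-likelihood F tests were adjusted by Benjamini-Hochberg over all tested genes. SE is the absolute log2 fold change divided by the square root of F. Exon overlaps came from GENCODE. The procedure was tested on simulated data. Python 3.11.15 drew the figures. Alternatives included DESeq2 1.42.0.

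The members and gene lists were chosen with earlier results of these data known. Named in detail are Adamts12, Adamts16, the TIMPs, the members with the largest fold changes among those called for a population against the mean of the others (up to 25 in all), and the 10 with the highest level per kb. The few others were named after their values were seen.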

Additional observations from a re-analysis of the deposited data

How the results depend on the processing

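Across the alternatives, 199 of 214 recomputed counts of called members stayed within 1.5 times the reported count, and 15 did not. Of 1207 values for single members, 1160 stayed the same, 46 were weaker and 1 changed otherwise, while 0 reversed direction. Most alternatives reuse nearly all libraries, so that a reversal was unlikely from the outset. Without a limit on the fold change, the counts were 29 in S9-JAG1+ LMPs, 16 in S9-Pαhi LMPs, 17 in OCPs, 32 in CBs, 25 in S9-SCA-1+ cells, 21 between the LMP populations, 11 between OCPs and S9-Pαhi LMPs and 21 between CBs and OCPs, as fewer conditions have to be met. Without the S9-SCA-1+ libraries the count in S9-Pαhi LMPs was 8 instead of 4, of which 2 were shared. When single libraries were left out, the number of calls was from 11 to 16 in S9-JAG1+ LMPs, from 2 to 6 in S9-Pαhi LMPs, from 4 to 6 in OCPs, from 13 to 16 in CBs, from 13 to 14 in S9-SCA-1+ cells, from 9 to 12 between the LMP populations, from 1 to 5 between OCPs and S9-Pαhi LMPs, from 8 to 11 between CBs and OCPs and from 28 to 30 in the joint test. Leaving out an S9-SCA-1+ library assumes that the remaining library varies like those of the other populations.

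The labels tie replicate numbers to no shared litter or day. Of 26 same-number pairs, 5 had deviations correlated over 0.1 (range -0.219 to 0.472), and 7 of 14 libraries correlated best with their own number. Pairs with different numbers ranged more widely. OCP replicate 1 correlated at 0.557 with S9-Pαhi replicate 3 and at -0.462 with S9-Pαhi replicate 2. A block by replicate number does not model deviations shared across numbers. With the replicate number as a block, the counts were 13 in S9-JAG1+ LMPs, where Adamts12 was no longer called (log2 fold change -1.20), 4 in S9-Pαhi LMPs, 5 in OCPs, 15 in CBs, 14 in S9-SCA-1+ cells and 29 in the joint test. Members at a few reads, such as Adamts8, Mmp9 and Mmp28 in their low populations, are limited by depth.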
